A study of Mus musculus with 6 samples.

Results

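Integrins are the main adhesion receptors of leukocytes. Each is a pair of an alpha and a beta chain that holds the cell to matrix proteins or to ligands on other cells, and it binds firmly only after talin and kindlin attach to the tail of the beta chain inside the cell. The pair of Itgam (CD11b) and Itgb2 (CD18) is complement receptor 3, which takes up particles coated with fragments of complement C3 and also has a lectin site that binds β-glucan. The transcripts of 10 integrin genes were followed here in lung interstitial macrophages, namely Itgam, Itgb2, Itgax, Itgal, Itga4, Itgb1, Itgb7, Itga6, Itgav and Itgb5. They were chosen by symbol from a read count table of 21965 genes, and all 10 were found and passed the filter on low counts.

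C57Bl/6 mice, 6 to 8 weeks old, received by intraperitoneal injection either 1 mg of WGP, a particulate β-glucan of yeast, or the saline vehicle (PBS). Treatment ran for 6 days, and on day 7 the interstitial macrophages, which lie in the tissue between the airspaces, were obtained from digested lungs by antibody staining. The antibodies are not named, so it is not known whether CD11b or CD11c, the products of Itgam and Itgax and common markers for gating lung macrophages, were used to choose the cells. PolyA-selected RNA was sequenced in 3 libraries per group, and nothing says whether a library is 1 mouse or a pool, so the spread behind each p-value is that between libraries and may be technical. Levels are in CPM, the read count scaled to the TMM-normalised library size, given for replicates 1, 2 and 3 in that order, and fold changes are WGP over PBS on the log2 scale with their SE. Each adjusted p comes from the edgeR quasi-likelihood fit of all 12305 genes tested, corrected by Benjamini-Hochberg.

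The libraries held 18254678 to 19451407 counts after WGP and 18910786 to 20346517 counts after PBS. All 17 interstitial macrophage markers were detected, among them Cd74, Csf1r, Apoe and the macrophage antigen gene Adgre1, and they summed to 13074 to 15361 CPM after WGP and 19848 to 22137 CPM after PBS. Of these markers 3 rose (Fcgr1, Csf1r and Cx3cr1), 6 fell (Mertk, Mrc1, Ms4a7, H2-Ab1, Cd74 and Apoe) and 8 did not pass, and Cd74 averaged 5063 CPM after WGP and 9073 CPM after PBS. In all, 10 of the 17 were lower in each WGP library than in each PBS library and 3 were higher. Over all genes tested these shares were 24.9% and 23.2%. The 10 include C1qa (-1.32), C1qb (-1.30) and C1qc (-1.42), which did not pass (adjusted p between 0.083 and 0.097). Y-linked transcripts summed to 201 to 224 CPM in the WGP libraries and to 120, 183 and 11.01 CPM in the PBS libraries. PBS replicate 3 stood apart, and PBS replicate 1 was the next lowest. Every WGP library lay above every PBS library, so the Y-linked level cannot be fully told apart from the treatment. Without PBS replicates 1 and 3 the calls of Itgb1 (adjusted p = 0.122) and Itgb5 (adjusted p = 0.075) were lost, and those of the other 6 changed members were kept.

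Of the 10 integrin genes 4 were higher after WGP, 4 were lower and 2 did not pass. Across all genes tested 31.0% changed, 15.2% higher and 15.7% lower. With library sizes alone as the scaling, 33.4% in place of 49.2% of the changed genes were higher and the median of all genes lay at -0.12 in place of -0.02, and the same numbers of integrin genes were higher and lower. The genes that rose were Itgb7, Itga4, Itgav and Itgam, and those that fell were Itga6, Itgax, Itgb5 and Itgb1. The WGP libraries lay wholly on one side of the PBS libraries for these 8 genes, as they did for 48.1% of the genes tested (23.2% with WGP higher and 24.9% with WGP lower). Itgb2 and Itgal did not pass the test. The lowest of the 10 in CPM was Itga6, with 130 to 180 counts per library after WGP, so counting error was small for all of them.

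**Figure D1:**
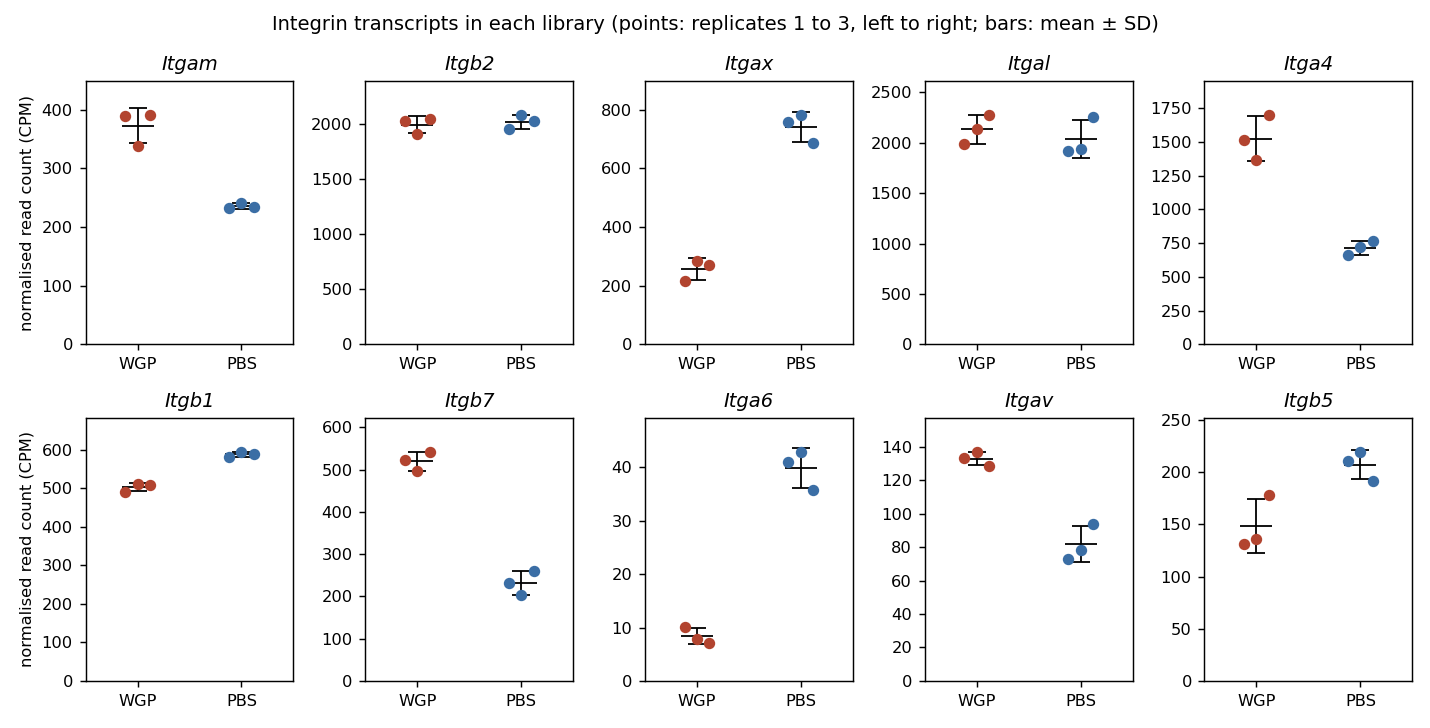
Normalised read counts (CPM) of the 10 integrin genes in each library, with points for replicates 1 to 3 and bars for the mean ± SD of 3 libraries, each axis starting at 0. The points of WGP and PBS overlap only in the Itgb2 and Itgal panels.

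The sequences at the starts of Itgam and Itgax are shown because these neighbours on chromosome 7 changed in opposite directions, and those of Itga4 and Itgb7 because they encode partner chains that rose together. Each runs from 250 bases before to 50 bases after the start of the gene in RefSeq on GRCm38.p6, and 7 of the 10 genes had such a sequence. Capitals mark GAGGAA, which reads as TTCCTC on the other strand, the core of the site bound by PU.1, an ETS transcription factor of myeloid cells.
Itgam (chr7:128062390-128062689, plus strand): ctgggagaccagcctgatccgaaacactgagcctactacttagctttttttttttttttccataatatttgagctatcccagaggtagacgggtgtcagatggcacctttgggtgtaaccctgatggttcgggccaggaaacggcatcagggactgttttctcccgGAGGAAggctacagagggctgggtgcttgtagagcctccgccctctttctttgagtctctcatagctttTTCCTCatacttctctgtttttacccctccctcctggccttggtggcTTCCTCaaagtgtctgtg
Itgax (chr7:128129300-128129599, plus strand): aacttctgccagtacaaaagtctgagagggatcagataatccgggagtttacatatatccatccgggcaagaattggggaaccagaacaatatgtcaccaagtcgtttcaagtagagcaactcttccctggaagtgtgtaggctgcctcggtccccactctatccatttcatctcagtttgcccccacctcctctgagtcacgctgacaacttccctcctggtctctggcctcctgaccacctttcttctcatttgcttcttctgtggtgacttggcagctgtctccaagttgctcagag
Itga4 (chr2:79255176-79255475, plus strand): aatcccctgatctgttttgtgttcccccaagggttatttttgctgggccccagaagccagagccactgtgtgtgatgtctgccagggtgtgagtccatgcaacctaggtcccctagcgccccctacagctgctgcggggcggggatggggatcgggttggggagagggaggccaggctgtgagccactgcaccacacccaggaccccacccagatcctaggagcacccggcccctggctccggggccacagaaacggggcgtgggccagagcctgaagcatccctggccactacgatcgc
Itgb7 (chr15:102231886-102232185, minus strand): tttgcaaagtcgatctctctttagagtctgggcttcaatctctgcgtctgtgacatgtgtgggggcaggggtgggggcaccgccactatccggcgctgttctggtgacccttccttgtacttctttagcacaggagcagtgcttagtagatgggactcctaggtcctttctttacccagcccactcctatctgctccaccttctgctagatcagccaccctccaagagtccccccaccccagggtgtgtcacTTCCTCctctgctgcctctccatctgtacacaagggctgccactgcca

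The Itgam window held GAGGAA or its reverse 3 times, starting 84 and 15 bases before the gene start and at base 33 after it. The Itgb7 window held it once, at base 3 after the start, and the Itgax and Itga4 windows did not hold these letters. Among 32851 mouse promoter windows of the same length 28.3% held it. GGGCGG on either strand, the core of Sp-family sites, was present once each in the Itgam and Itga4 windows and in 35.7% of all windows. TGTGGT on either strand, the core of RUNX sites, was present once each in the Itgax and Itga4 windows and in 16.8% of all windows. None of these matches is evidence of binding.

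The leukocyte β2 integrins share the chain encoded by Itgb2, and their alpha chains moved in different directions around an Itgb2 level that did not pass the test. Itgb2 (ENSMUSG00000000290, GRCm38 chromosome 10, 77530252 to 77565708) had 2030, 1912 and 2048 CPM after WGP, against 1954, 2080 and 2029 CPM after PBS. The groups overlapped, and the log2 fold change of -0.02 ± 0.07 (adjusted p = 0.87) had a 95% confidence interval from -0.16 to 0.13. Itgb2 was the highest of the 10 genes per length of exon in both groups, at 654 ± 24.3 CPM per kb after WGP and 662 ± 20.8 CPM per kb after PBS (SD, n = 3), above more than 99.6% of the genes tested.

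Itgam, the alpha chain of complement receptor 3, rose. Its levels were 390, 338 and 391 CPM after WGP, against 233, 241 and 234 CPM after PBS. The lowest WGP library lay well above the highest PBS library. The log2 fold change was 0.66 ± 0.08 (adjusted p = 0.00015), a 1.58-fold higher level, and it lay between 0.56 and 0.73 in all 17 other fits tried. Itgam (ENSMUSG00000030786, chromosome 7, 128062640 to 128118491, plus strand) shares 3450 of its 5024 exonic bases (68.7%) with Gm49368, an annotated gene on the same strand. Gm49368 itself had only 7.47, 10.03 and 8.10 CPM after WGP and 6.51, 9.65 and 5.65 CPM after PBS (log2 fold change 0.23 ± 0.25, adjusted p = 0.52). Reads of the shared bases counted for both genes would appear in Gm49368 as well, and its level was far below that of Itgam. HTSeq by default leaves out reads that match both of a pair of overlapping genes, and the setting used is not given in the sources used here. If such reads were left out, the Itgam counts come from the remaining 1574 bases, and the level per length is 237 ± 19.1 CPM per kb after WGP and 150 ± 2.92 CPM per kb after PBS, in place of 74.2 ± 5.98 and 46.9 ± 0.91 CPM per kb over all exons (WGP first, SD, n = 3).

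Classical monocytes and neutrophils carry much CD11b on their surface. All 12 classical monocyte markers rose, led in level by Plac8 and F13a1, and their summed level was 7520 to 8917 CPM after WGP and 2505 to 3289 CPM after PBS, with none of them at 0. Of 13 neutrophil markers tested 1 rose, and the sum of all 14 was 1660 to 3195 CPM after WGP and 1292 to 2894 CPM after PBS, which overlap. In bulk libraries more cells of a type and more RNA per cell cannot be told apart, and the part of these cells in the level of Itgam was not tested.

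Itgax, the CD11c chain of complement receptor 4 and a gene that alveolar macrophages and dendritic cells express at high levels, fell. It had 216, 284 and 271 CPM after WGP, against 757, 781 and 686 CPM after PBS. All WGP libraries were far below all PBS libraries. The log2 fold change was -1.53 ± 0.11 (adjusted p = 1.4e-05), with a level 2.88-fold higher in PBS libraries, and it lay between -1.63 and -1.41 in the other fits. Itgax (ENSMUSG00000030789) starts at 128129547 and ends at 128150657 on chromosome 7, only 11.1 kb beyond the end of Itgam on the same strand, and shares no exon with another gene. Alveolar macrophage markers fell beside it, 17 of 18, with the chitinase-like gene Chil3 at the highest level in both groups. Their sum was 1498, 1954 and 1688 CPM after WGP, against 7907, 9486 and 5965 CPM after PBS, and none was at 0. Of 11 dendritic cell markers 5 fell and none rose, with sums of 213 to 237 CPM after WGP and 399 to 505 CPM after PBS. The part of either cell type in the fall of Itgax was not tested.

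Itgal, the CD11a chain of LFA-1, which binds ICAM-1 during arrest on endothelium and contact with lymphocytes, did not pass. It had 1988, 2137 and 2273 CPM after WGP, against 1923, 1941 and 2254 CPM after PBS. These ranges overlapped, and the log2 fold change of 0.06 ± 0.08 (adjusted p = 0.60) had a 95% confidence interval from -0.12 to 0.25. Itgal (ENSMUSG00000030830, chromosome 7, 127296260 to 127335138) was the highest alpha chain per length in both groups, at 325 ± 21.7 CPM per kb after WGP and 310 ± 28.4 CPM per kb after PBS (SD, n = 3). T and NK cells also express LFA-1, and the sum of their 14 markers in the table was 31.1 to 117 CPM after WGP and 173 to 273 CPM after PBS. Nonclassical monocyte markers summed to 6863 to 8652 CPM after WGP and 7340 to 8824 CPM after PBS. Of these 9 markers 2 rose and 7 did not pass. Much of their sum came from Nr4a1 (mean 3432 CPM after WGP and 3658 CPM after PBS) and Ace (1806 and 2238 CPM). Sums of different lists therefore do not compare amounts of cells. The part of either cell type in the level of Itgal was not tested.

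Itgad, the CD11d chain and the least abundant β2 partner, was not among the 10 genes but lies beside Itgax. It fell to 0.39, 1.27 and 0.66 CPM in the WGP libraries, against 10.5, 6.49 and 6.32 CPM in the PBS libraries. The log2 fold change was -3.31 ± 0.45 (adjusted p = 0.00038). From Itgal to Itgad the chromosome 7 region spans 928 kb, and of 30 other genes tested there 3 were higher and 3 were lower. Over all genes tested 15.2% were higher and 15.7% lower.

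As shares of the summed level per kb of the 4 alpha chains, Itgam made up 16.4 ± 1.69% after WGP and 9.15 ± 0.39% after PBS, and Itgax 11.8 ± 1.27% after WGP and 30.1 ± 2.94% after PBS (SD, n = 3). Itgal made up 71.7 ± 0.47% after WGP and 60.4 ± 3.38% after PBS. Over exons not shared with another gene, the share of Itgam was 38.5 ± 2.90% after WGP and 24.3 ± 0.85% after PBS, and that of Itgax 8.70 ± 1.16% after WGP and 25.1 ± 2.28% after PBS. The share of Itgal on that scale was 52.7 ± 1.74% after WGP and 50.3 ± 3.18% after PBS, and its libraries overlapped between the groups. The order of Itgam and Itgax in PBS libraries therefore depends on the length used: Itgax was higher in all 3 over all exons, and in 2 of 3 over unshared exons. After WGP Itgam was the higher one in all 3 libraries on both scales. The 4 alpha chains together stood at 0.69 ± 0.05 of the Itgb2 level after WGP and 0.78 ± 0.03 after PBS over all exons, and at 0.94 ± 0.04 after WGP and 0.93 ± 0.03 after PBS over unshared exons.

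**Figure D2:**
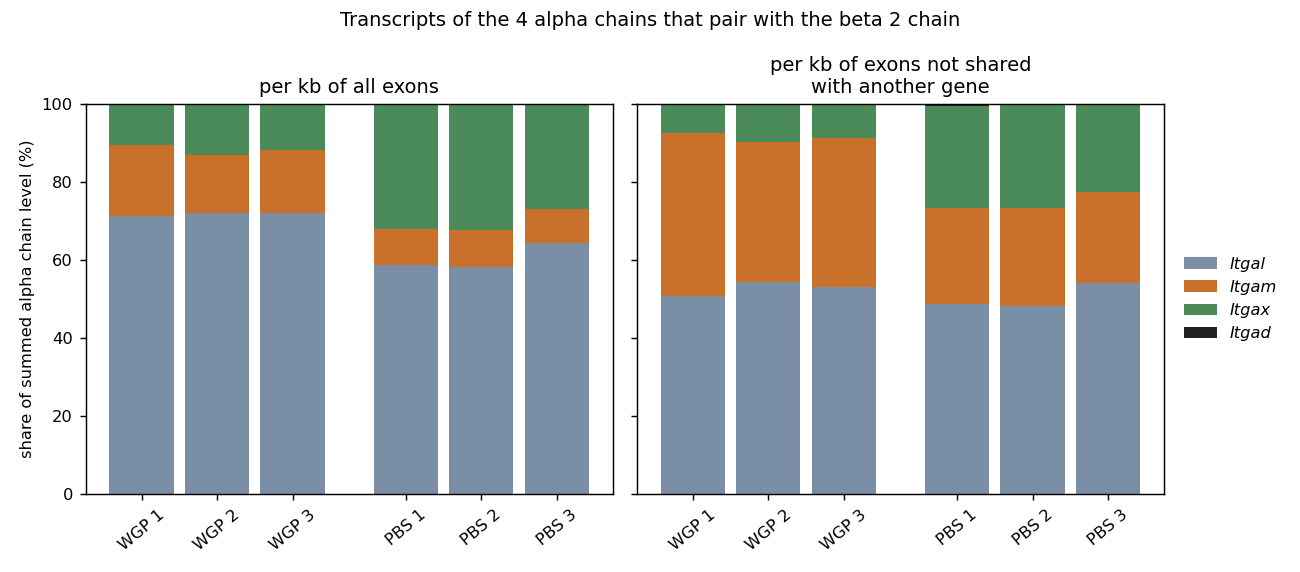
Share of each β2-partner alpha chain in their summed level (percent) in every library, per kb of all exons (left panel) and per kb of exons not shared with another gene (right panel), each bar 1 library. The Itgax part is smaller and the Itgam part larger in each WGP library than in each PBS library on both scales, while the Itgad part is under 1% of every bar.

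Itga4 and Itgb7 rose by nearly the same factor. Itga4, the α4 chain that binds VCAM-1 and fibronectin and is carried by monocytes and lymphocytes, had 1515, 1364 and 1698 CPM after WGP, against 663, 720 and 767 CPM after PBS. All WGP libraries were above all PBS libraries. The log2 fold change was 1.09 ± 0.09 (adjusted p = 3.3e-05), a 2.13-fold higher level. Itgb7, the chain that with α4 forms the receptor for the gut addressin MAdCAM-1, had 522, 496 and 542 CPM after WGP, against 231, 204 and 260 CPM after PBS. Here too the groups were far apart, and Itgb7 was 2.24-fold higher after WGP (log2 fold change 1.17 ± 0.09, adjusted p = 2.0e-05). Over the other fits the log2 fold change lay between 0.99 and 1.17 for Itga4 and between 1.06 and 1.35 for Itgb7. Itga4 (ENSMUSG00000027009, chromosome 2, 79255426 to 79333123) shares 8.04% of its exonic bases with Cerkl on the other strand, a gene at 4.08 to 9.96 CPM, and Itgb7 (ENSMUSG00000001281, chromosome 15, 102215995 to 102231944) shares none.

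The rise of the classical monocyte markers is described with Itgam. The sum of 9 B cell markers was 65.8 to 131 CPM after WGP and 137 to 159 CPM after PBS, with 1 of 9 lower and none higher. Of 14 T and NK cell markers tested 2 were lower and none higher. The part of monocytes or lymphocytes in the levels of Itga4 and Itgb7 was not tested.

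Itgb1, the most widely shared beta chain, which pairs with α4, α5, α6 and αv among others, was slightly lower. It had 491, 510 and 508 CPM after WGP, against 581, 594 and 590 CPM after PBS. The replicates of each group lay close together, and the groups did not overlap. The log2 fold change was -0.23 ± 0.06 (adjusted p = 0.019). This call was lost without WGP replicate 1 (0.068), without WGP replicate 3 (0.052) and with Y-linked expression added to the model (0.05004), as well as without both PBS replicates 1 and 3, with a log2 fold change between -0.33 and -0.21 in all other fits. Itgb1 (ENSMUSG00000025809) lies on chromosome 8 from 128685654 to 128733200.

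Itga6, the laminin-binding α6 chain, which epithelial cells, endothelial cells and platelets also carry, had the largest fall of the 10 genes. It had 10.1, 7.92 and 7.11 CPM after WGP, against 41.1, 42.9 and 35.7 CPM after PBS. The highest WGP library was far below the lowest PBS library, and the log2 fold change was -2.25 ± 0.16 (adjusted p = 1.3e-05), between -2.40 and -2.14 in the other fits. Itga6 (ENSMUSG00000027111, chromosome 2, 71745616 to 71858416) was the lowest of the 10 genes per length, at 0.93 ± 0.17 CPM per kb after WGP and 4.42 ± 0.41 CPM per kb after PBS (SD, n = 3).

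Epithelial and endothelial markers fell as well. Of 12 epithelial markers tested 8 fell and 1 rose, and the sum of all 13 was 94.5, 148 and 157 CPM after WGP, against 557, 847 and 424 CPM after PBS. Of 14 endothelial markers 10 fell and none rose, with sums of 82.1, 121 and 128 CPM after WGP, against 290, 283 and 270 CPM after PBS. None of 5 tested platelet and erythroid markers passed, and the platelet gene Gp1bb was at 0 in all libraries. The platelet genes Pf4 (-1.22 ± 0.46, adjusted p = 0.11) and Ppbp (-2.23 ± 0.88, adjusted p = 0.077) were nevertheless lower in each WGP library than in each PBS library. The erythroid genes overlapped between the groups. Itgb4, the beta chain that pairs with α6 in epithelial hemidesmosomes, was too low to test, with 0 counts in each WGP library and 41, 24 and 5 counts in the PBS libraries. The part of these cells in the fall of Itga6 was not tested.

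The chains of αvβ5, a receptor for vitronectin and for the bridging protein MFG-E8 in the uptake of dying cells, moved in opposite directions. Itgav, which also pairs with β1 and β3 and in several pairs releases active TGF-β, had 133, 137 and 129 CPM after WGP, against 72.8, 78.6 and 93.7 CPM after PBS. The groups did not overlap, and Itgav rose (log2 fold change 0.70 ± 0.10, adjusted p = 0.00040). Itgb5 had 131, 136 and 178 CPM after WGP, against 211, 219 and 192 CPM after PBS. WGP replicate 3 came close to the lowest PBS library without reaching it, and Itgb5 fell (log2 fold change -0.48 ± 0.11, adjusted p = 0.011). Over the other fits Itgav lay between 0.60 and 0.85 and Itgb5 between -0.63 and -0.40. Itgav (ENSMUSG00000027087, chromosome 2, 83724397 to 83806916) shares 5.90% of its exonic bases with Gm13684 on the other strand, and Itgb5 (ENSMUSG00000022817) lies on chromosome 16 from 33829665 to 33949338.

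The order of the 10 genes by level per kb of exon differed between the groups. After WGP it ran Itgb2, Itgal, Itgb7, Itgb1, Itga4, Itgam, Itgax, Itgb5, Itgav and Itga6, where the libraries of Itgb1 and Itga4 and those of Itgax and Itgb5 overlapped. After PBS it ran Itgb2, Itgal, Itgax, Itgb1, Itgb7, Itgb5, Itga4, Itgam, Itgav and Itga6, where Itgax overlapped with Itgb1, Itgb5 with Itga4, and Itga4 with Itgam. Itgb7 stood at 188 ± 8.31 CPM per kb after WGP and 83.7 ± 9.998 CPM per kb after PBS, and Itga4 at 109 ± 12.0 CPM per kb after WGP and 51.3 ± 3.73 CPM per kb after PBS (SD, n = 3). The place of Itgam holds only for the length of all its exons. Over unshared exons its 237 CPM per kb after WGP lay above Itgb7, and its 150 CPM per kb after PBS lay near Itgax and Itgb1.

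Ratios of 2 chains within a library need no scaling between libraries. The log2 ratio of Itgam to Itgb2 per kb was -3.10, -3.22 and -3.11 after WGP, against -3.79, -3.83 and -3.84 after PBS, a difference of 0.68. For Itgax to Itgb2 it was -3.89, -3.40 and -3.57 after WGP, against -2.02, -2.07 and -2.22 after PBS, a difference of -1.52. Itgax to Itgam differed most, at -0.79, -0.19 and -0.46 after WGP, against 1.77, 1.76 and 1.62 after PBS, a difference of -2.19. The ratios with Itgam are for the length of all its exons, while the differences between groups do not depend on length. Over unshared exons Itgam and Itgax stood close together after PBS, at 24.3% and 25.1% of the summed alpha chains. The ratio of Itga4 to Itgb1 was higher after WGP by 1.31 and that of Itgav to Itgb5 by 1.205. By contrast, Itga4 to Itgb7 was -0.79 ± 0.09 after WGP and -0.70 ± 0.16 after PBS (SD, n = 3), and the libraries of the groups overlapped.

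Of 9 pairs compared, 7 had no overlap between the groups, and each of these gave p = 0.1 in a two-sided exact permutation test over libraries, the smallest p that 3 against 3 allows (0.13 after Benjamini-Hochberg adjustment over the 9 pairs). No pair could therefore pass a threshold of 0.05. The other 2, Itgal to Itgb2 (exact permutation p = 0.5) and Itga4 to Itgb7 (exact permutation p = 0.6), overlapped. Of single genes tested 48.1% also had no overlap between the groups. The 9 pairs reuse the same chains, most of which did not overlap on their own, so the 7 are not separate results.

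**Figure D3:**
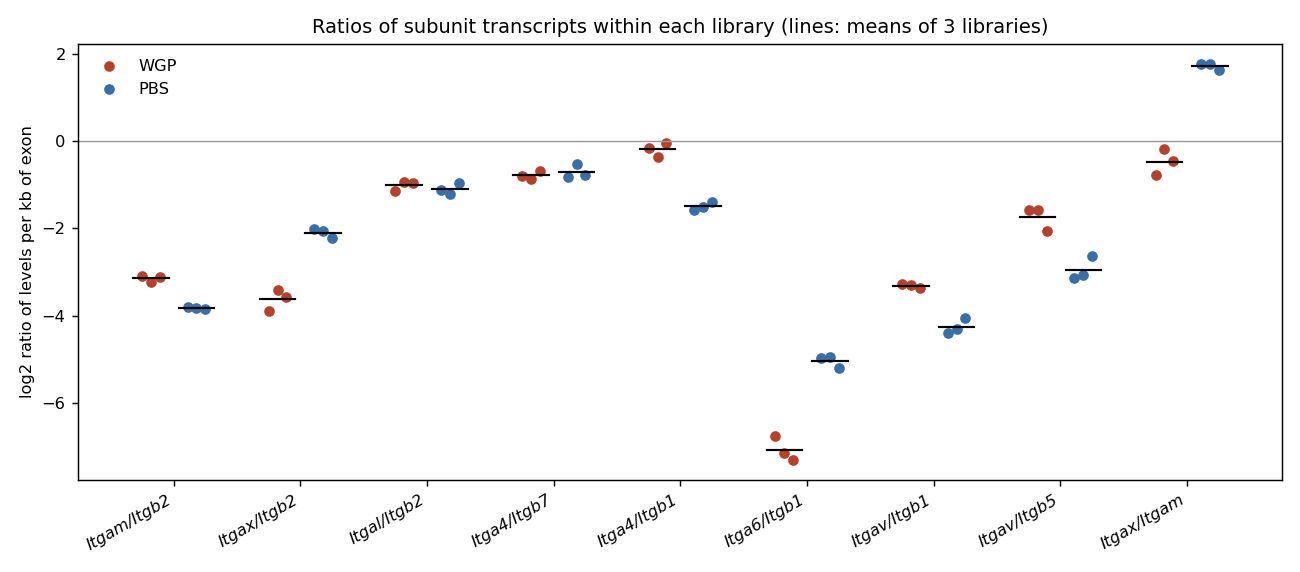
Log2 ratio of the levels per kb of exon of 2 integrin chains in each library, with lines at the means of 3 WGP and 3 PBS libraries. The groups overlap for Itgal/Itgb2 and Itga4/Itgb7 and are apart for the other 7 pairs, most for Itgax/Itgam. The height of the ratios with Itgam depends on the exon length used, and the distance between the groups does not.

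Of 17 other integrin subunit genes 12 were tested, of which 2 rose, 3 fell and 7 did not pass, so that 41.7% changed, against 31.0% of all genes tested. Their median log2 fold change was -0.60, against -0.02 for all genes, but it was -1.37 without PBS replicate 3 (15 subunits tested), -1.12 without WGP replicate 3 (15 tested), -0.97 without WGP replicate 2 (15 tested) and -1.46 without the filter on low counts (17 tested). Itga5, the fibronectin receptor chain α5, rose to 170, 175 and 168 CPM in the WGP libraries, against 134, 135 and 125 CPM in the PBS libraries (log2 fold change 0.38 ± 0.07, adjusted p = 0.0019). Itga1, the collagen receptor chain α1, rose to 75.4, 57.3 and 47.0 CPM in the WGP libraries, against 30.2, 36.5 and 40.9 CPM in the PBS libraries (0.74 ± 0.18, adjusted p = 0.016). Besides Itgad, Itga3 fell (-1.84 ± 0.51, adjusted p = 0.019), a laminin receptor chain at 0.45 to 2.52 CPM after WGP and 4.83 to 6.75 CPM after PBS. Itga9 fell too (-1.53 ± 0.41, adjusted p = 0.035), at 4.76 to 16.0 CPM after WGP and 26.4 to 33.8 CPM after PBS.

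The calls of Itga1, Itga3 and Itga9 were each lost without PBS replicate 1 (adjusted p between 0.065 and 0.109). Over all 17 other fits the call was lost in 4 for Itga1, in 4 for Itga3 and in 7 for Itga9. Among the 7 that did not pass were Itgae, the CD103 chain that pairs with β7 (-1.48 ± 0.59, adjusted p = 0.098), and Itgb3, which pairs with αv (0.24 ± 0.19, adjusted p = 0.38). Itgae passed without WGP replicate 2 (adjusted p = 0.00083), with DESeq2 (0.017) and with limma-voom (0.020). Itgb3 passed without PBS replicate 3 (adjusted p = 0.041) and with Y-linked expression in the model (0.023), and Itga7 without WGP replicate 2 (0.032) and with limma-voom (0.035). Itga2, Itga2b, Itga7, Itga8 and Itga10 had log2 fold changes from -3.00 (Itga7, 0 to 0.21 CPM after WGP and 0.57 to 0.68 CPM after PBS) to -0.16 (Itga8), with adjusted p from 0.085 to 0.64. Itga11, Itgb2l, Itgb4, Itgb6 and Itgb8 had at most 70 counts over all 6 libraries and were not tested.

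**Figure D4:**
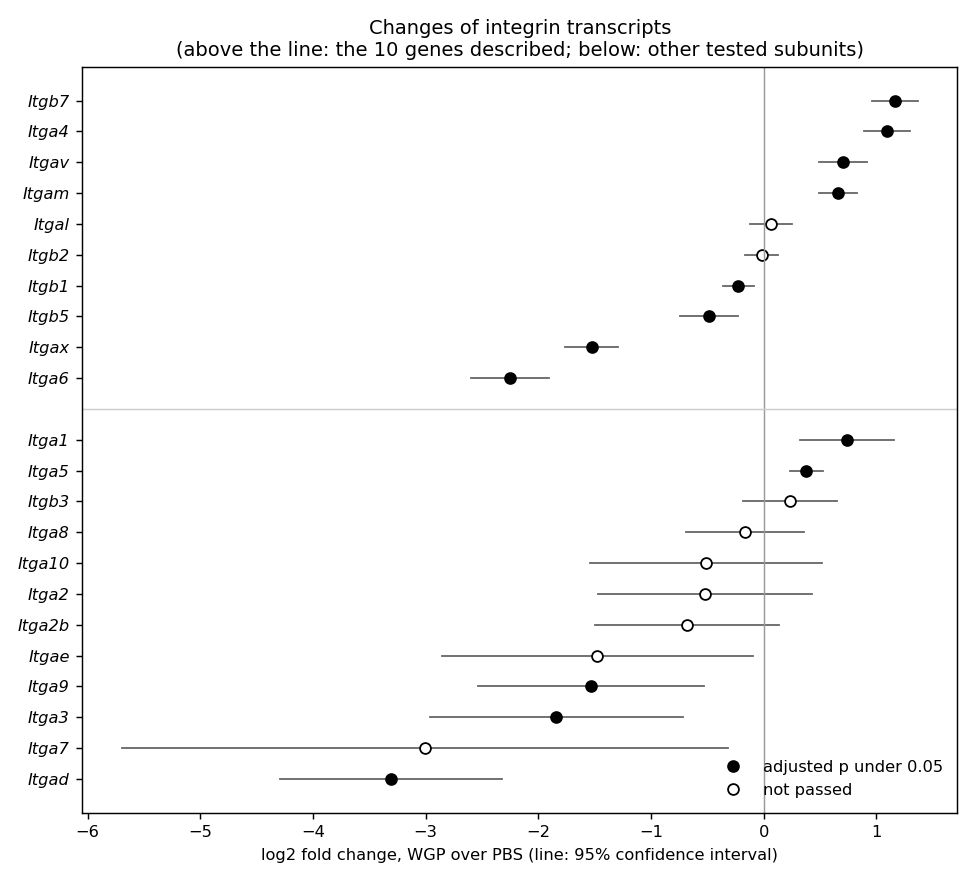
Log2 fold changes (WGP over PBS) of the 10 integrin genes described and of 12 other tested subunits, with 95% confidence intervals and filled points for adjusted p under 0.05. Of the 10 genes above the line only Itgal and Itgb2 have open points, and the intervals of the scarce subunits Itga7, Itgae and Itga3 are the widest.

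Genes listed for integrin activation and the adhesion complex were more often higher than lower. The list does not separate genes that promote activation from genes that restrain it. Of 46 tested genes of the activation and adhesion complex list 17 rose (37.0%), 7 fell (15.2%) and 22 did not pass, with a median log2 fold change of 0.14, against 15.2% higher, 15.7% lower and a median of -0.02 over all genes. With library sizes alone 15 of these genes were higher and 12 lower. Tln1, the talin that switches integrins to the binding state, had 2767, 2815 and 3104 CPM after WGP, against 1923, 1821 and 2103 CPM after PBS (0.57 ± 0.08, adjusted p = 0.00046). Fermt3, the kindlin of blood cells, without which β2 integrins do not activate, had 475, 454 and 458 CPM after WGP, against 294, 301 and 329 CPM after PBS (0.59 ± 0.07, adjusted p = 0.00018). Neither gene's groups overlapped.

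The GTPase Rap1 helps to recruit talin. Rap1b (0.42 ± 0.09, adjusted p = 0.0049), its effector gene Apbb1ip, also known as RIAM (0.44 ± 0.08, adjusted p = 0.0030), and the exchange factor gene Rapgef1 (0.67 ± 0.08, adjusted p = 0.00015) rose. The Rap1 effector gene Rassf5 (0.03 ± 0.07, adjusted p = 0.78) and the adaptor genes Crk (0.17 ± 0.08, adjusted p = 0.12) and Crkl (0.07 ± 0.09, adjusted p = 0.60) did not pass. Also higher were the vinculin gene Vcl (0.74 ± 0.08), the adhesion kinase gene Ptk2b, which encodes PYK2 (0.76 ± 0.09), and the adaptor gene Lims1 (0.68 ± 0.09), with adjusted p between 0.00013 and 0.00042. The genes that fell included paralogs of these, namely Fermt2, the kindlin of tissue cells (-2.41 ± 0.30, 1.93 ± 0.61 CPM after WGP and 10.3 ± 1.83 CPM after PBS), and the focal adhesion kinase gene Ptk2 (-0.88 ± 0.27). Actn1 (-2.22 ± 0.43), Actn4 (-0.35 ± 0.07) and Dok2 (-0.70 ± 0.11) also fell, with adjusted p between 0.0011 and 0.019. Fermt2 and Actn1 are expressed strongly by fibroblasts and smooth muscle, whose 13 markers summed to 22.8 to 46.8 CPM after WGP and 87.2 to 116 CPM after PBS. Of the 12 tested 3 fell and 9 did not pass, among them Dcn (-0.06) and Acta2 (0.51). Their part in these falls was not tested.

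The signalling adaptors that β2 integrins use in macrophages were Tyrobp (DAP12), which rose (0.38 ± 0.07, adjusted p = 0.0018), and Fcer1g, which rose (0.32 ± 0.07, adjusted p = 0.0082). Syk, the kinase they recruit, had 1046, 988 and 1136 CPM after WGP, against 1025, 1152 and 974 CPM after PBS, and did not pass (0.01 ± 0.08, adjusted p = 0.95).

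Of 40 integrin ligand genes tested 20 fell (50%), 4 rose (10%) and 16 did not pass. Over all genes tested 15.7% were lower and 15.2% higher. The median log2 fold change of the ligand genes was -1.26, against -0.02 for all genes. It was unchanged with Tnc, at 0 in all WGP libraries, set to a floor of 3 counts per library. Tnc stayed below the median either way, so this is no check of the median. Among the 4 most abundant, Fn1, C3 and Tgfb1 rose, while Thbs1, the thrombospondin-1 gene, had 5426 CPM on average after WGP and 2750 CPM after PBS and did not pass (0.98, adjusted p = 0.13). C3, whose fragment iC3b is the classical ligand of complement receptor 3, had 1839, 1611 and 1456 CPM after WGP, against 589, 677 and 841 CPM after PBS (1.22 ± 0.14, adjusted p = 0.00047). Fn1, the fibronectin gene and source of ligand for α4 and α5 integrins, had 6538, 4548 and 5993 CPM after WGP, against 2701, 2682 and 2786 CPM after PBS (1.06 ± 0.12, adjusted p = 0.00025). The libraries of the groups were far apart for both genes. Icam1, the LFA-1 ligand (0.54 ± 0.13, adjusted p = 0.015), and Tgfb1, whose latent product is held by αv integrins (0.54 ± 0.09, adjusted p = 0.0016), were the other 2 that rose.

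Spp1, the gene of osteopontin, a ligand of αv and α4 chains, fell to 3.87, 7.76 and 4.71 CPM in the WGP libraries, against 81.3, 104 and 55.8 CPM in the PBS libraries (-3.88 ± 0.36, adjusted p = 0.00091). Mfge8, the gene of the αvβ5 ligand MFG-E8, fell (-1.25 ± 0.14, adjusted p = 0.00014), as did Cdh1, the epithelial cadherin bound by the integrin of Itgae and Itgb7 (-3.06 ± 0.16, adjusted p = 7.5e-06). Ccn1 (-2.49 ± 0.24), Pecam1 (-1.45 ± 0.13) and Vwf (-1.50 ± 0.18) were the other ligand genes with the smallest p-values among those that fell. Pecam1 and Vwf are genes of endothelial cells, whose markers fell as described, and their part was not tested. Vcam1, the α4 ligand on activated endothelium, had 6.90, 25.1 and 2.52 CPM after WGP and 162, 28.8 and 122 CPM after PBS, and did not pass (-3.17 ± 1.13, adjusted p = 0.11). Without PBS replicates 1 and 3 the number of ligand genes that passed was 12 in place of 24.

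**Figure D5:**
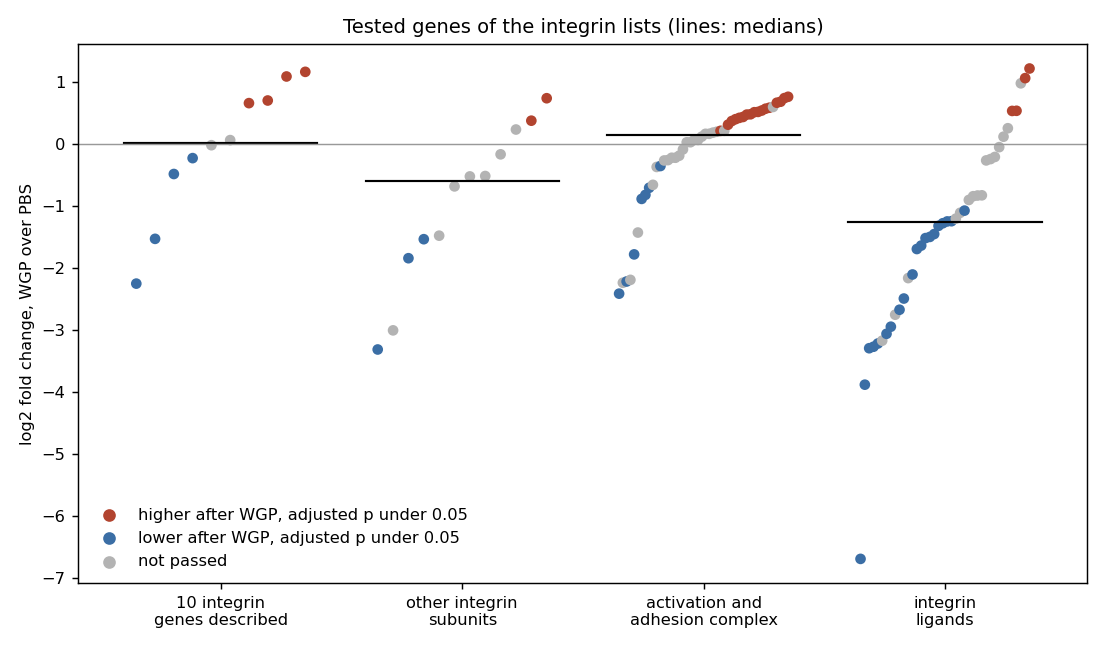
Log2 fold changes (WGP over PBS) of the tested genes of 4 lists, sorted within each list, with a line at each list's median and colours for the direction of genes with adjusted p under 0.05. The activation list holds 17 red points between 0.21 and 0.76, and 20 of the 40 ligand points are blue; the lowest ligand point is Tnc, whose fitted value has no lower bound because all its WGP counts are 0.

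By mean absolute difference of log2 CPM centred on each gene over the 6 libraries, the genes nearest to Itgam among 9458 with a mean of at least 5 CPM were Gsr, the glutathione reductase gene (0.030), Tmc8 (0.030) and Card9, the adaptor gene of C-type lectin signalling (0.033). Nearest to Itgax were Vat1 (0.066), Gadd45g (0.070) and the parathymosin gene Ptms (0.070). Gsr, Tmc8 and Card9 had log2 fold changes from 0.66 to 0.70, and Vat1, Gadd45g and Ptms from -1.65 to -1.43.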

How the data were processed

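RNA-seq libraries of mouse lung interstitial macrophages, 3 from WGP mice and 3 from PBS mice, were grouped and numbered by their labels. The authors deposited raw counts per gene. HTSeq 0.10.0, FastQC 0.10.1 and the builds GRCm38 and mm10 are named, per the submitters' processing notes; for the aligner, annotation release and strand setting nothing is given in the sources used here. Symbols, coordinates and exon lengths came from GENCODE M21 (GRCm38), which matched 21939 of 21965 identifiers, and promoter sequences from RefSeq GRCm38.p6. The fit of WGP over PBS used edgeR 4.0.16 in R 4.3.3 with filterByExpr and TMM (robust glmQLFit, two-sided quasi-likelihood F test, Benjamini-Hochberg over 12305 genes, threshold 0.05). SEs were derived from the fold change and its F statistic (log2 fold change over root F). Subunit ratios used counts per kb of exon. The test was checked on simulated counts with a far smaller part of genes changed than here and directions drawn at random. That check therefore does not cover the dependence on scaling. Genes that share exons with another gene, and those on opposite strands of the same bases, may share reads.

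The members, gene lists and tests were chosen with earlier results of these data known. Named were the 10 integrins, every other tested subunit, fixed names (1 of them not analysed here), of the activation and ligand lists the 6 smallest p-values in each direction with a mean of at least 5 CPM, the 3 genes nearest to Itgam and to Itgax, and the marker genes with the highest levels. One gene that this rule names is not reported here. Named outside this rule, after their values were seen, were interstitial markers that changed, Adgre1, Dcn, Acta2, Rassf5, Crk, Crkl, Thbs1, Tnc, Gm49368, Cerkl, Gm13684, Gp1bb, Pf4, Ppbp, Itgb4 and the other untested subunits. So were C1qa, C1qb and C1qc. Alternatives were other scalings, filters and tools (DESeq2 1.42.0, limma-voom of limma 3.58.1), a replicate block, Y-linked expression as a covariate, and fits without 1 or 2 libraries.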

Additional observations from a re-analysis of the deposited data

How the results depend on the processing

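Of 170 refitted log2 fold changes of the 10 integrin genes over 17 other fits, 163 kept their direction and their side of the threshold. The calls of Itgam, Itgax, Itga4, Itgb7, Itga6 and Itgav were kept in all 17. The exceptions were 5 lost calls of Itgb1 and Itgb5 and 2 sign changes of genes that did not pass: Itgal with library sizes alone (-0.038) and Itgb2 without 1 library (from -0.047 to 0.015). Among other subunits Itga8 ran from -0.41 to 0.0016 without 1 library. The ratio of Itga4 to Itgb7 ran from -0.14 to 0.0079 when 1 library was left out. The other 62 of 63 recomputed ratio differences kept their sign. Without PBS replicates 1 and 3 there were 1820 changed genes in place of 3809, 2 lower integrin genes in place of 4, 1 changed other subunit in place of 5 and 12 changed ligand genes in place of 24; with 1 PBS library left, that library is assumed to vary like the others. Without 1 library the changed genes numbered 2491 (without PBS replicate 1) to 3717, and the other changed subunits 2 (without PBS replicate 1) to 7. The cause of these changes was not tested. With the replicate number as a replicate block 3185 genes changed and the same numbers of integrin genes were higher (4) and lower (4), and Itga1 did not pass (adjusted p = 0.074). Same-numbered libraries did not deviate together (r = -0.06, -0.08 and -0.05 across genes). With 3 libraries per group these values cannot exclude a shared batch, and the labels do not give one. Subunits with under about 5 CPM are limited by depth.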
